A study of Macaca mulatta with 11 samples.

Results

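The genes described here encode the dystrophin-associated protein complex, measured in 11 rhesus monkey (Macaca mulatta) cultures of mesenchymal stem cells grown from bone marrow. The members were 10 genes, DMD, UTRN, DAG1, SGCB, SGCD, SGCE, SSPN, DTNA, SNTB1 and SNTB2, and every probe set whose platform gene symbol is a member was taken. A probe set is the group of short probes that reads 1 transcript region on the array. In all, 23 of 22215 probe sets, for 8 of the 10 genes, were found in this way, and each of the 23 carried 1 gene symbol. No probe set was named DAG1 or SGCD in the probe annotation used, so that dystroglycan and delta-sarcoglycan were not analysed here. The family was chosen by the fetal and adult log2 values of 1 DMD probe set, already known to differ, and that difference is given below as a description.

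Each culture was hybridised to 1 array, with 4 arrays titled fetal, 4 infant and 3 adult. In the fetal group, arrays 1 and 2 represent gestation day 120 and arrays 3 and 4 newborn animals. Ages in the infant group were 6, 6, 3 and 5 months in array order, and in the adult group 7, 7 and 8 years. All cultures were adherent marrow cells grown in medium with fetal bovine serum and collected at the second passage, and no strain, genotype or treatment that separates the groups was given. Marrow of the arrays titled fetal had been flushed from long bones, whereas infant and adult marrow had been aspirated, so that fetal age and the way marrow was collected cannot be told apart. Whether cultures within an age group stem from separate animals is not given, and p-values then reflect only the spread among these cultures. In RNA from whole cultures fewer cells of a type and less RNA per cell cannot be told apart.

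Dystrophin is a long rod-shaped protein that ties cortical actin to dystroglycan in the plasma membrane, and dystroglycan in turn binds laminin outside the cell. Utrophin, encoded by UTRN, is its close relative and is widely expressed outside muscle. Sarcoglycans and sarcospan sit beside dystroglycan in the membrane, and dystrobrevins and syntrophins bind dystrophin or utrophin inside the cell and recruit signalling proteins. The complex is best known from muscle, where loss of dystrophin causes Duchenne muscular dystrophy, but stromal and smooth muscle cells express several of its parts. The DMD gene gives a full-length protein and several shorter ones from internal promoters, and the sources used here do not say which of these each probe set reads.

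Most probe sets of these genes were read dimly. Median intensities of the arrays lay between 164.9 and 169.6, pairs of arrays correlated at 0.928 to 0.983 in log2, and the median of all log2 values was 7.38. The number of arrays limited the precision. Of the 23 probe sets 6 had a mean log2 intensity above that median and 17 did not. The means ran from 6.70 for the dimmer SGCB probe set to 8.83 for the brightest SNTB2 probe set. SGCE and this SNTB2 probe set were the 2 that lay above the 88th percentile of all probe sets. All 3 DMD probe sets and both UTRN probe sets had means below the median. The probes were annotated to human genes, so that a low reading of monkey RNA bounds no transcript level, and a change in a dim probe set is compressed on this scale.

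**Figure D1:**
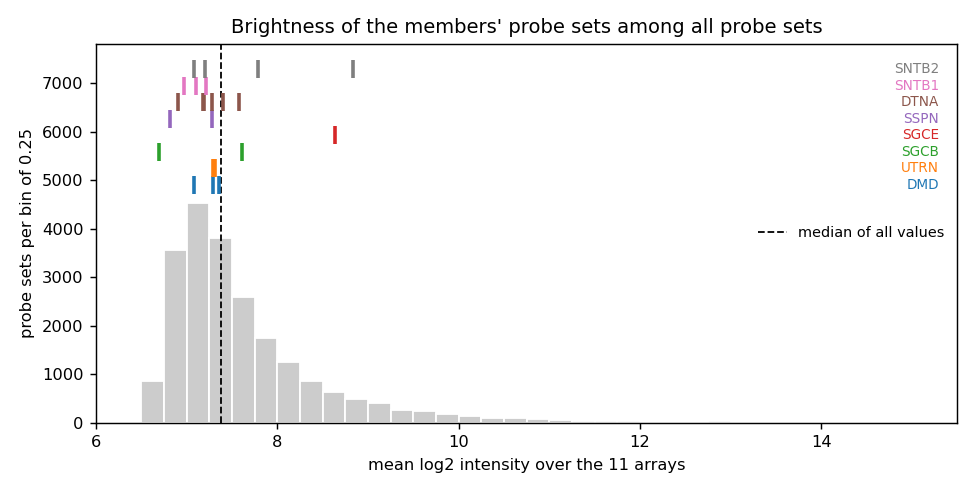
Histogram of the mean log2 intensity of all 22215 probe sets over the 11 arrays (x axis log2 intensity, y axis probe sets per bin of 0.25), with a tick for each of the 23 probe sets of the 8 genes and a dashed line at the median of all values, 7.38. Of the ticks, 17 lie at or left of the line, and those of SGCE and the brightest SNTB2 probe set lie farthest right.

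Dystrophin, the rod that connects actin to the membrane, was read by 3 probe sets. The one that led to the choice of these genes, 203881_s_at, stood at 6.86, 6.71, 7.00 and 7.43 in fetal arrays 1 to 4, at 7.24, 7.24, 7.31 and 7.08 in infant arrays 1 to 4, and at 8.35, 8.00 and 7.73 in adult arrays 1 to 3. All 3 adult arrays lay above all 8 younger arrays, while fetal and infant arrays overlapped. The fetal mean was 7.00 ± 0.31 (SD, n = 4), the infant mean 7.22 ± 0.10 (SD, n = 4) and the adult mean 8.02 ± 0.31 (SD, n = 3). The fetal minus adult log2 difference was -1.02 (SE 0.17), a 2.03-fold lower intensity in fetal arrays.

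The other 2 DMD probe sets did not show a difference of that size. Probe set 207660_at had a fetal mean of 7.02 ± 0.16 (SD, n = 4), an infant mean of 7.01 ± 0.23 (SD, n = 4) and an adult mean of 7.24 ± 0.12 (SD, n = 3), and its fetal minus adult difference of -0.22 had a 95% interval from -0.50 to 0.07. Probe set 208086_s_at had a fetal mean of 7.26 ± 0.06 (SD, n = 4), an infant mean of 7.24 ± 0.05 (SD, n = 4) and an adult mean of 7.39 ± 0.26 (SD, n = 3), with a fetal minus adult difference of -0.13 and an interval from -0.37 to 0.12. Both differences had the sign of the first. Neither interval reached -1.02, the value that led to the choice of the genes. Changes in dim probe sets are compressed, but 203881_s_at was below the median too, with a mean of 7.36 beside 7.08 and 7.29. The part of compression in their disagreement was not tested. For 208086_s_at the adult mean rested on adult array 1, at 7.68, with 7.28 and 7.20 in adult arrays 2 and 3. Across the 11 arrays the pairwise correlations among the 3 DMD probe sets ran from 0.13 to 0.64, as a description of probe sets that share the same libraries.

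**Figure D2:**
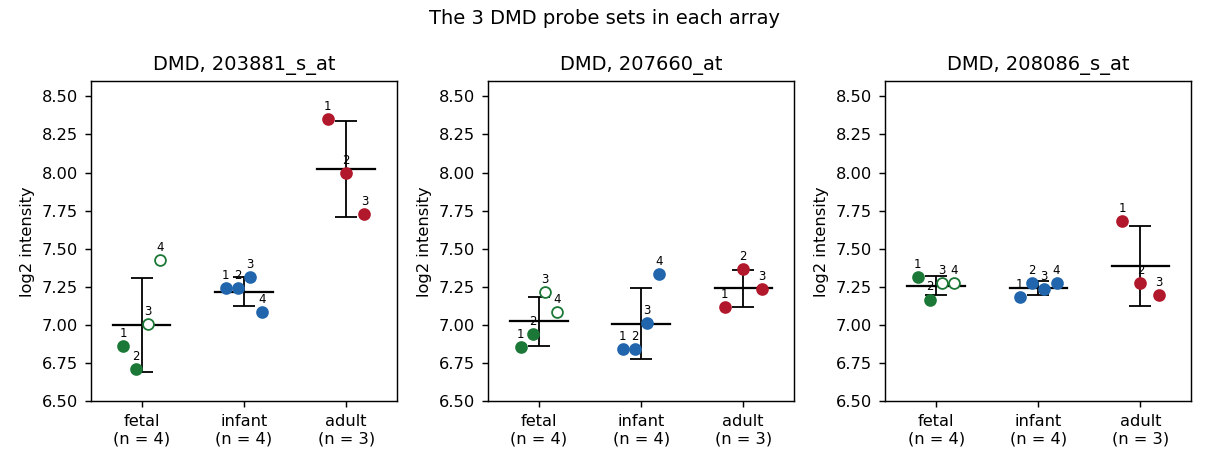
Log2 intensity (y axis) of the 3 DMD probe sets in each fetal, infant and adult array (x axis), with open points for newborn donors, array numbers beside the points, and bars for the mean and SD of each group. In 203881_s_at the adult arrays, at 7.73 to 8.35, lie above all other arrays, whereas in the other 2 probe sets the groups overlap.

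By stage, the mean of DMD 203881_s_at was 6.79 at gestation day 120, 7.22 in newborns, 7.22 in infants and 8.02 in adults. Newborn and gestation day 120 arrays differed by 0.43 (SE 0.20), which did not pass the test over all probe sets (limma adjusted p = 1.00), and the newborn and infant means were level at 7.22 (adjusted p = 1.00). Infant minus adult was -0.80 (SE 0.17), a 1.75-fold lower intensity, and did not pass either (adjusted p = 0.214). That comparison shares its adult arrays with the one that chose the gene, so that it is not separate support for it. Without adult array 3 the infant minus adult difference was -0.95 and passed (adjusted p = 0.0379), as it did with no other single array left out. That fit called 55 probe sets of the whole table in place of 4, and it too reuses adult arrays that chose the gene.

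With single arrays left out, the fetal minus adult difference of DMD ranged from -1.17 to -0.86, the smallest being without adult array 1. With newborn arrays alone set against adults it was -0.81, and with gestation day 120 arrays alone -1.24. Adult arrays 1 and 2 stood apart in immunoglobulin transcripts, with the lambda light chain IGLC1 at 12.82 and 13.23 against 9.10 in adult array 3 and at most 8.30 elsewhere. Without these 2 arrays, a fit that leaves 1 adult array assumed to vary like the other groups, the DMD difference was -0.72. DMD lies on the X chromosome, and adult array 3, the lowest adult array for DMD, was the one with high XIST, the RNA of the inactive X, at 11.23 against at most 8.40 elsewhere. The same array had low RPS4Y1, a gene of the Y chromosome, at 7.81 against at least 11.30 elsewhere. Without adult array 3 the fetal minus adult difference was -1.17, and the part of the animals' sex in it was not tested.

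Smooth muscle markers had lower means in fetal than in adult arrays, as DMD did. All 9 of 9 measured markers had this sign, with a median difference of -0.72 against -0.01 over all probe sets. An unadjusted p under 0.05 was reached by 6 of the 9, beside 8.96% of all probe sets. Of the 9, 2 passed the test over all probe sets, beside 0.131% of all. These were the smooth muscle actin ACTG2 at -1.32 (adjusted p = 0.0160) and calponin, CNN1, at -0.84 (adjusted p = 0.00815). The other 7 did not pass, among them MYH11 at -0.36 (adjusted p = 0.769) and DES at -0.10 (adjusted p = 0.952). In infant minus adult 1 of the 9 passed, beside 0.0180% of all, ACTG2 at -1.57 (adjusted p = 0.0106). The marker list was chosen with earlier results of these data known, so that no excess is read from its counts. The summed intensity of the 9 ran from 12866 to 27901 in fetal, 23468 to 26507 in infant and 29173 to 32066 in adult arrays. TAGLN and ACTA2, transgelin and a smooth muscle actin, lay at percentiles 99.8 and 99.2 of all probe sets by level. These 2 weigh most in that sum of linear intensities, and neither passed in fetal minus adult (adjusted p = 0.149 and 0.304). All 9 markers had means above the median of all values. Of 25 measured skeletal muscle markers 16 had lower and 9 higher fetal means, with a median difference of -0.03, and limma called 0, with 3 of 25 at an unadjusted p under 0.05 beside 8.96% of all probe sets. Their summed intensity ran from 4152 to 4441 in fetal, 4288 to 4520 in infant and 4312 to 4706 in adult arrays. Of these 25, 17 had means no higher than the median of all values, among them MYF5, CKM, TTN and the myosin heavy chains MYH1, MYH2, MYH3, MYH7 and MYH8, while MYOD1 stood at 8.33. Of 9 measured B and plasma cell markers 6 had lower and 3 higher fetal means, with a median difference of -0.12. Limma called 0, with 4 of the 9 at an unadjusted p under 0.05, beside 8.96% of all probe sets. They summed to 1586 to 1666 in fetal, 1528 to 1693 in infant and 1924 to 11816 in adult arrays, and the adult range follows the immunoglobulin genes, with IGLC1 at a fetal minus adult difference of -3.64 (adjusted p = 0.0561) and IGKC at -1.42 (adjusted p = 0.194), beside 0.00 for the B cell surface gene MS4A1 and 0.16 for CD79A (adjusted p = 1.00 and 0.827). JCHAIN at -0.40 (adjusted p = 0.324) and POU2AF1 at -0.29 (adjusted p = 0.475) were lower in fetal arrays too, whereas IGHM and TNFRSF17 each stood at 0.07. The part of these cell type markers in the DMD difference was not tested.

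**Figure D3:**
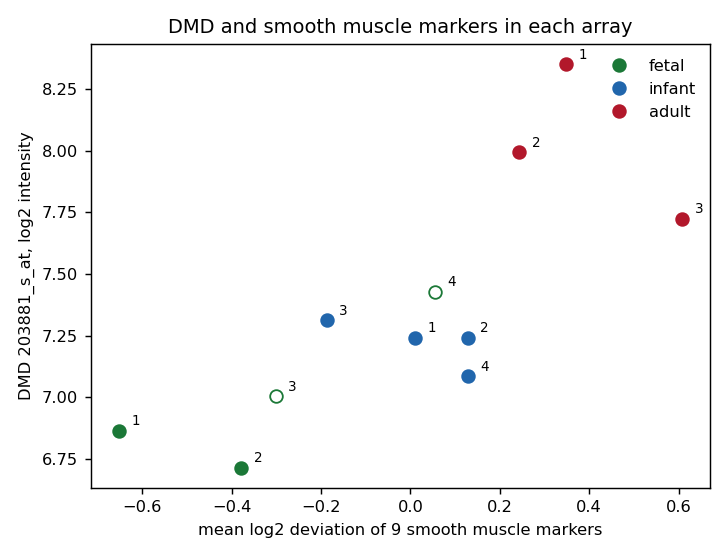
Log2 intensity of DMD 203881_s_at (y axis) against the mean log2 deviation of 9 smooth muscle markers from their own means (x axis), with 1 point per array, array numbers beside the points and open points for newborn donors. The 3 adult arrays lie at the upper right, at marker deviations from 0.24 to 0.61, and fetal arrays 1 to 3 at the lower left, from -0.65 to -0.30. The infant arrays, from -0.19 to 0.13, and fetal array 4, at 0.05, lie between them on the x axis. Their DMD values are 7.08 to 7.31 and 7.43, below every adult array.

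The remaining complex was read against the whole table. In fetal minus adult 1 of the 23 probe sets, 4.35%, passed an adjusted p of 0.05, where 0.131% of all probe sets did, and this 1 is the DMD probe set by which the genes were chosen, so that nothing is read from it. The other 22 differed by -0.34 to 0.22, with adjusted p from 0.405 to 0.994, and their 95% intervals lay between -0.60 and 0.47. None reached the DMD difference of -1.02, which led to the choice of the genes. Most of the 22 were dim, and changes in dim probe sets are compressed, so that these intervals bound no transcript change. The median over all 23 was -0.11, beside -0.01 over all probe sets. Of the 23, 15 were lower and 8 higher. No overlap between fetal and adult arrays was seen for 4 of 23, 17.4%, beside 8.08% of all probe sets. These were DMD 203881_s_at, DTNA 208430_s_at and SNTB2 205314_x_at, lower in fetal arrays, and SNTB1 214708_at, higher there. An unadjusted p under 0.05 was reached by 3 of the 23, 13.0%, beside 8.96% of all. Without the DMD probe set by which the genes were chosen it was reached by 2 of 22. That probe set also enters the median, the 15 lower and the 4 without overlap, so that no excess is read from these.

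Between infant and adult arrays limma called 0 of the 23, beside 0.0180% of all, with 3 of the 23 at an unadjusted p under 0.05, beside 6.19% of all. Without DMD 203881_s_at, chosen by values of the same adult arrays, 2 of 22 reached that p. Groups did not overlap for 4 of 23, beside 4.98% of all: SGCE was higher in infants, and DMD 203881_s_at, SNTB2 205314_x_at and SNTB2 213814_s_at were lower. For the 23 as a whole the median was -0.03 beside -0.01. Between fetal and infant arrays limma also called 0 of 23, beside 0 of all, with 4 of the 23, 17.4%, at an unadjusted p under 0.05, beside 6.87% of all. Groups did not overlap for 1 of 23, SGCE, beside 3.34% of all. The F test over the 3 groups called 0 of 23, beside 0.0360% of all, with 3 of the 23 at an unadjusted p under 0.05, beside 8.01% of all, and with SGCE at an adjusted p of 0.220. These 3 include DMD 203881_s_at. Between newborn and gestation day 120 arrays 0 of 23 and 0 of all probe sets passed in limma, with 1 of the 23 at an unadjusted p under 0.05, beside 1.81% of all, and differences ran from -0.22 to 0.43.

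**Figure D4:**
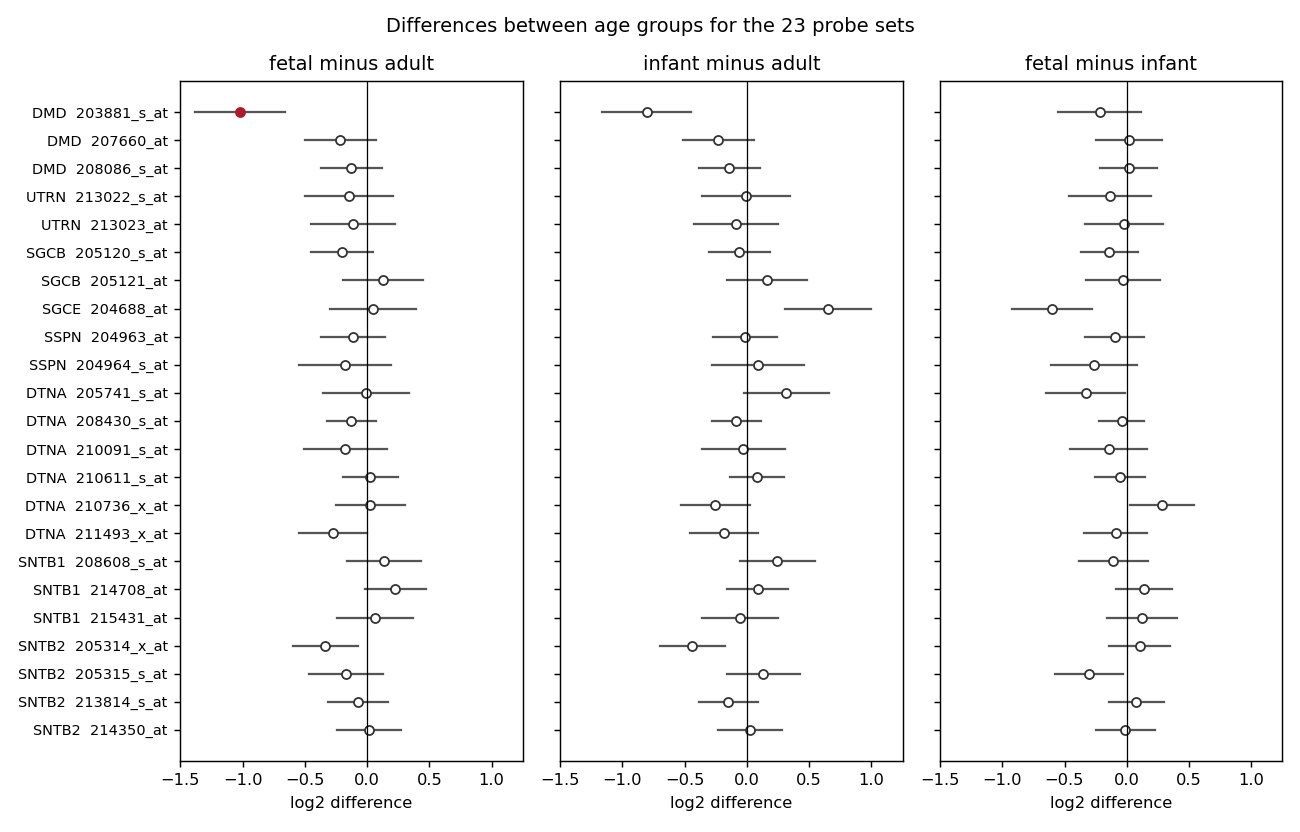
Log2 differences (x axis) with 95% intervals for the 23 probe sets (y axis) in the 3 comparisons of age groups, from the limma fit over all probe sets, with the filled point marking the call by which the genes were chosen and open points all others. The intervals of the other 22 in fetal minus adult lie between -0.60 and 0.47, and SGCE is displaced to the right in infant minus adult and to the left in fetal minus infant.

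Utrophin, the relative that can take the place of dystrophin at the membrane, showed no difference between age groups that passed in either of its probe sets. Probe set 213022_s_at stood at 6.81, 7.36, 7.41 and 7.30 in fetal arrays 1 to 4, 7.31, 7.74, 7.30 and 7.08 in infant arrays 1 to 4, and 7.30, 7.52 and 7.28 in adult arrays 1 to 3. All 3 groups overlapped, with fetal array 1 the lowest and infant array 2 the highest. Fetal minus adult was -0.15 with a 95% interval from -0.50 to 0.21 (adjusted p = 0.860), and infant minus adult -0.01 with an interval from -0.36 to 0.35 (adjusted p = 0.998). The sign of the infant minus adult difference turned under quantile normalization and median centring. Probe set 213023_at gave -0.11 and -0.09 for these comparisons, with intervals from -0.45 to 0.23 and from -0.43 to 0.25. The 2 UTRN probe sets did not rank the arrays alike, with a correlation of -0.05 over the 11 arrays, both being dim.

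Epsilon-sarcoglycan, SGCE, had the widest range of the 6 probe sets above the median of all values, and its infant arrays were the highest. The sarcoglycans are single-pass membrane glycoproteins. The epsilon form is found in many tissues besides striated muscle, and its gene is imprinted, with expression mainly from the paternal copy. SGCE stood at 8.17, 8.50, 8.54 and 8.54 in fetal arrays 1 to 4, 9.14, 9.44, 8.86 and 8.70 in infant arrays 1 to 4, and 8.54, 8.36 and 8.26 in adult arrays 1 to 3. All 4 infant arrays lay above all 7 others, an arrangement found for 57 probe sets, 0.257% of all, and noticed here after the values were seen. Group means were 8.43 ± 0.18 (SD, n = 4), 9.04 ± 0.33 (SD, n = 4) and 8.38 ± 0.14 (SD, n = 3). Infant minus adult was 0.65 (SE 0.16), a 1.57-fold higher intensity, and fetal minus infant was -0.60 (SE 0.15). Neither passed over all probe sets (adjusted p = 0.397 and 0.472). Fetal and adult arrays differed by 0.05 with an interval from -0.30 to 0.39, and this sign turned without adult array 3 and with gestation day 120 arrays alone.

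Beta-sarcoglycan, SGCB, a core subunit of the sarcoglycan complex, was read by 2 probe sets. The brighter, 205120_s_at, stood at 7.43, 7.51, 7.42 and 7.64 in fetal arrays 1 to 4, 7.87, 7.64, 7.40 and 7.66 in infant arrays 1 to 4, and 7.80, 7.63 and 7.68 in adult arrays 1 to 3. Its groups overlapped, fetal array 4 lying level with adult array 2 within 0.01. Fetal minus adult was -0.20 with an interval from -0.45 to 0.04 (adjusted p = 0.652). The dimmer probe set, 205121_at, gave 0.13, so that the 2 probe sets had opposite signs. Sarcospan, SSPN, which spans the membrane repeatedly and stabilises the sarcoglycans, gave fetal minus adult differences of -0.11 and -0.18 in its 2 probe sets (adjusted p = 0.848 and 0.829). Its brighter probe set, 204964_s_at, reached 7.95 in infant array 1, with the remaining arrays from 7.07 to 7.61.

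**Figure D5:**
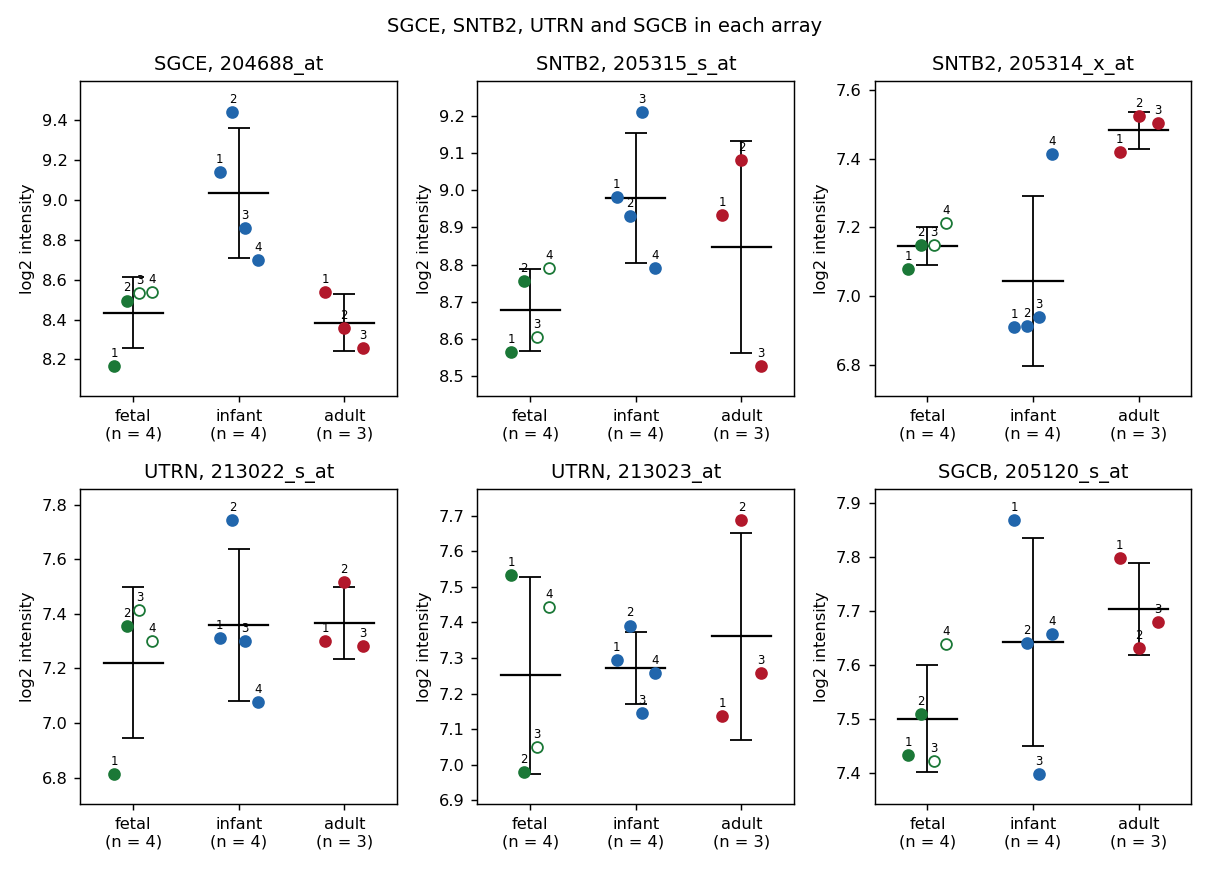
Log2 intensity (y axis, scaled separately for each panel) of SGCE, 2 probe sets of SNTB2, 2 of UTRN and the brighter one of SGCB in each array by group (x axis), with open points for newborn donors, array numbers beside the points, and bars for the mean and SD. The infant arrays of SGCE, at 8.70 to 9.44, lie above all other arrays, and the adult arrays of SNTB2 205314_x_at, at 7.42 to 7.52, lie above all others, whereas the groups overlap for UTRN.

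Syntrophins are adaptor proteins that carry PDZ domains and bind dystrophin and dystrobrevin inside the cell. SNTB2, a beta-syntrophin, was the brightest member, and its probe set 205315_s_at stood at 8.56, 8.75, 8.61 and 8.79 in fetal arrays 1 to 4, 8.98, 8.93, 9.21 and 8.79 in infant arrays 1 to 4, and 8.93, 9.08 and 8.53 in adult arrays 1 to 3. The adult arrays spanned nearly the whole range, from 8.53 to 9.08. Fetal minus infant was -0.30 with an interval from -0.57 to -0.03 (adjusted p = 0.690), and fetal minus adult -0.17 with an interval from -0.46 to 0.13 (adjusted p = 0.778), which turned to 0.15 without adult arrays 1 and 2. A dimmer SNTB2 probe set, 205314_x_at, stood at 7.08 to 7.21 in fetal, 6.91 to 7.41 in infant and 7.42 to 7.52 in adult arrays. Adult arrays lay above all others for it, by 0.01 over infant array 4, and the differences of -0.34 from fetal and -0.44 from infant arrays did not pass (adjusted p = 0.405 and 0.486). The remaining 2 SNTB2 probe sets differed by -0.07 and 0.01 between fetal and adult arrays, and correlations among the 4 ran from -0.37 to 0.34 over the 11 arrays. SNTB1, the other beta-syntrophin, was read by 3 probe sets with means below the median of all values, at fetal minus adult differences of 0.14, 0.22 and 0.06, with adjusted p from 0.605 to 0.944.

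Alpha-dystrobrevin, DTNA, a cytoplasmic relative of dystrophin that binds it and the syntrophins, was read by 6 probe sets, of which 4 had lower means in fetal than in adult arrays. Differences over the 3 comparisons ran from -0.33 to 0.32, and the smallest adjusted p was 0.557. The brightest, 210736_x_at, had an infant mean of 7.40 ± 0.21 (SD, n = 4) beside a fetal mean of 7.68 ± 0.12 (SD, n = 4) and an adult mean of 7.66 ± 0.18 (SD, n = 3). Probe set 205741_s_at had the opposite order, with an infant mean of 7.49 ± 0.33 (SD, n = 4) beside 7.16 ± 0.08 (SD, n = 4) and 7.17 ± 0.24 (SD, n = 3), and infant array 1 at 7.95. Neither passed the F test (adjusted p = 0.656 and 0.677). Correlations among the 6 DTNA probe sets ran from -0.36 to 0.77 over the 11 arrays.

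Genes that work with the complex were taken as 5 lists with 67 entries, of which 50 were measured, each by its brightest probe set with 1 symbol. Limma called 0 of the 50 in any of the 3 comparisons, with 8, 3 and 7 at an unadjusted p under 0.05 in fetal minus adult, infant minus adult and fetal minus infant. These are 16.0%, 6.00% and 14.0% of the 50, beside 8.96%, 6.19% and 6.87% of all probe sets. Of 7 measured other subunits, which include the alpha-sarcoglycan of striated muscle and the neuronal nitric oxide synthase, 5 were lower and 2 higher in fetal than in adult arrays, with a median of -0.08. CAV3, the muscle caveolin, had group means of 8.11 in fetal, 8.25 in infant and 8.35 in adult arrays, a fetal minus adult difference of -0.24 (adjusted p = 0.491). SGCA, alpha-sarcoglycan, differed by -0.16 (adjusted p = 0.722). Of 10 measured genes listed for dystroglycan glycosylation, 8 were higher and 2 lower in fetal than in adult arrays, with a median of 0.10. Limma called 0 of these, with 0 at an unadjusted p under 0.05 in that comparison. DOLK, dolichol kinase, differed by 0.29 (adjusted p = 0.571) and DPM2, a subunit of a mannosyl donor synthase, by -0.19 (adjusted p = 0.764).

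Among 11 measured extracellular ligands, the laminin chains, agrin, perlecan and others that dystroglycan can bind, 4 were higher and 7 lower in fetal arrays, with a median of -0.02. LAMA2, the laminin chain of muscle basement membrane, stood at 7.70, 7.88, 8.23 and 8.33 in fetal arrays 1 to 4, 8.61, 9.08, 8.35 and 8.51 in infant arrays 1 to 4, and 9.12, 8.58 and 9.33 in adult arrays 1 to 3. All fetal arrays lay below all infant and adult arrays, which overlapped each other. The fetal minus adult difference was -0.97 (SE 0.21, adjusted p = 0.0835). The other 3 LAMA2 probe sets gave -0.21, -0.09 and -0.53 (adjusted p from 0.217 to 0.899). Without fetal array 4 it was -1.07 and passed (adjusted p = 0.0466), and it passed with array weights too (adjusted p = 0.0423). LAMB1, a laminin beta chain, differed in the opposite direction, by 0.57 (SE 0.14, adjusted p = 0.157), with 0.55 in its other probe set (adjusted p = 0.336).

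Of 12 measured intracellular partners 7 were higher and 5 lower in fetal than in adult arrays, with a median of 0.11. CAV1, the scaffold protein of caveolae, stood at 11.46, 11.34, 11.22 and 10.60 in fetal arrays 1 to 4, 11.35, 11.40, 11.43 and 10.16 in infant arrays 1 to 4, and 10.12, 10.06 and 9.70 in adult arrays 1 to 3. Adult arrays lay below all others, with infant array 4 next to them. The fetal minus adult difference of 1.20 (SE 0.28) did not pass (adjusted p = 0.130), but it passed without infant array 4, at 1.20 (adjusted p = 0.0194), and without fetal array 4, at 1.38 (adjusted p = 0.0433). Those fits called 37 and 120 probe sets of the whole table in place of 29. The other CAV1 probe set gave 0.64 (adjusted p = 0.727). ANK3, an ankyrin that anchors membrane proteins to spectrin, differed by 0.68 (adjusted p = 0.113), with -0.11 and -0.08 in its other 2 probe sets. Of 10 measured genes of the integrin linkage, the other main tie between matrix and actin, 5 were higher and 5 lower, with a median of -0.08. FERMT2, a kindlin, differed by -0.57 between fetal and infant arrays (adjusted p = 0.497) and by -0.30 between fetal and adult arrays (adjusted p = 0.645). Its other 2 probe sets gave -0.87 and -0.32 in fetal minus infant (adjusted p = 0.197 and 0.616) and -0.47 and -0.22 in fetal minus adult. ITGA6, a laminin-binding integrin chain, differed by -0.39 between fetal and adult arrays (adjusted p = 0.426), with -0.14 in its other probe set.

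The genes whose profile over the 11 arrays was most like DMD 203881_s_at, out of 19062 probe sets with 1 symbol, were PRB3 (Pearson r = 0.94), GPLD1 (0.93), ID4 (0.92), NTRK2 (0.91) and ASB13 (0.90). ID4, an inhibitor of basic helix-loop-helix factors, and NTRK2, a neurotrophin receptor, had fetal minus adult differences of -1.30 and -0.79. For UTRN 213022_s_at they were ADD2 (0.91), RIOK2 (0.89), ABHD2 (0.89), LANCL2 (0.87) and IL17A (0.86). The points share their libraries and were ranked over all those probe sets, so that these values describe likeness and carry no test.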

How the data were processed

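Per the submitters' processing notes, the authors processed the arrays by RMA, a method that subtracts background, equalises the distributions of the arrays and combines each set's probes into 1 value, and no version is given in the sources used here. The deposited intensity values are linear, from 75.3 to 36519, and log2 was taken first. Differences in total brightness between arrays are therefore mostly removed before deposit. Probe sets were named by the platform annotation (19065 with 1 symbol, 1043 with several, 2107 with none).

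A mean for each age group was fitted by limma 3.58.1 (R 4.3.3) to all 11 arrays and all 22215 probe sets, and in another fit a mean for each stage. Tests were two-sided, intervals are at 95%, and a call means an adjusted p below 0.05 (Benjamini-Hochberg, across every probe set). Adjusted p-values without another name are limma's. The fit was tested on simulated data. Members and lists were chosen with earlier results of these data known. All member probe sets are described. Where a gene is given by 1 value, it is by its brightest probe set with 1 symbol. In each pathway list the called genes are named, or, where none was called, the 2 with the smallest F test p. Marker lists are counted as a whole, and the leukocyte, B and plasma cell, endothelial, Schwann cell and neural, erythroid and mesenchymal surface markers had 0 called genes in each comparison by limma, with at most 4 of a list at an unadjusted p under 0.05.

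The 3 groups carry the same replicate numbers in their titles. After subtraction of group means, each infant array correlated with its same-numbered adult array at 0.14, 0.13 and 0.20, above 0.1 in every pair, whereas fetal and adult arrays correlated at 0.07, 0.04 and -0.10 and fetal and infant arrays at 0.12, 0.01, 0.04 and 0.28. Differently numbered arrays were not compared, so that these values cannot tell whether arrays were paired. The labels give no source for a pairing. No pair of arrays held identical values. Figures were drawn with matplotlib 3.10.9.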

Additional observations from a re-analysis of the deposited data

Results flagged for a closer look

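In the fetal and infant groups of 4, each of the 23 probe sets was checked for an array whose gap to its nearest neighbour exceeded Dixon's critical value at 95% as a share of the group's range. Of 46 groups 6 held one, 13.0%, beside 9.83% of the 44430 such groups over all probe sets. Chance flags about 1 in 20 groups of values without ties, and many values here are tied, so that the share over all probe sets is the nearer comparison. SGCE stood at 8.17 in fetal array 1, with the other fetal arrays at 8.50 to 8.54. SSPN 204964_s_at stood at 7.95 in infant array 1, with the others at 7.21. DTNA 205741_s_at stood at 7.03 in fetal array 3, with the others at 7.20, and DTNA 210611_s_at at 7.18 in infant array 1, with the others at 6.84 to 6.88. SNTB1 215431_at stood at 6.84 in infant array 2, with the others at 7.24 to 7.28. SNTB2 205314_x_at stood at 7.41 in infant array 4, with the others at 6.91 to 6.94.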

How the results depend on the processing

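The count of called member probe sets in fetal minus adult, 1 as reported, was 0 among the brighter probe sets (DMD 203881_s_at is below that limit), 0 with an offset of 50 before log2, 0 with newborn arrays alone and 0 without adult arrays 1 and 2, which was added once the data had been seen. It ranged from 0 to 1 when single arrays were left out, being 0 without adult array 1, adult array 2, infant array 2, fetal array 1, fetal array 2 or fetal array 3. In infant minus adult the count of 0 ranged from 0 to 1 when single arrays were left out, reaching 1, DMD, without adult array 3. The F test count of 0 became 1 with a trended and robust variance, 1 with array weights and 1 with the replicate block, and ranged from 0 to 1 when single arrays were left out, reaching 1 without adult array 3 or fetal array 4. With the replicate block the counts for the pairwise comparisons stayed at 1, 0 and 0, so that it changed no other call of a member, but the CAV1 difference between fetal and adult arrays became 1.44 (adjusted p = 0.000468), and 221 probe sets of the whole table passed in place of 29. The same-numbered fetal and adult arrays correlated at 0.07, 0.04 and -0.10 after subtraction of group means, and differently numbered arrays were not compared. Over all probe sets the fetal minus adult count was 12 with the offset, 120 with array weights, 4 when adult array 1, adult array 2 or fetal array 2 was left out, and 153 without adult array 3.

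Signs of small differences turned. UTRN 213022_s_at in infant minus adult became 0.01 with median centring, 0.00 with quantile normalization, 0.03 with the replicate block and 0.08 without adult arrays 1 and 2, and ranged from -0.14 to 0.09 when single arrays were left out. In fetal minus adult, SGCE became -0.05 with gestation day 120 arrays alone and ranged from -0.01 to 0.14, DTNA 210736_x_at became -0.12 without adult arrays 1 and 2 and -0.01 with gestation day 120 arrays alone and ranged from -0.07 to 0.10, SNTB1 215431_at became -0.17 without adult arrays 1 and 2 and ranged from -0.06 to 0.18, and SNTB2 205315_s_at became 0.15 without adult arrays 1 and 2. In infant minus adult the ranges were -0.10 to 0.24 for SSPN 204964_s_at, -0.14 to 0.02 for SGCB 205120_s_at, -0.03 to 0.25 for SNTB2 205315_s_at and -0.19 to 0.06 for SNTB1 215431_at. Of the 23 probe sets 11, 12 and 14 kept their sign in every alternative in fetal minus adult, infant minus adult and fetal minus infant, and no difference above 0.27 turned. DMD 203881_s_at kept its sign in all of them, from -1.17 to -0.86 with single arrays left out. The causes were not tested. Most of the member probe sets were dim, which limits what can be seen.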

Other observations

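Exactly equal values recurred across arrays. Of the 23 probe sets 14, 60.9%, held a value shared by 2 or more arrays to the last deposited digit, as did 58.5% of all probe sets. For DMD 208086_s_at, 1 value, 7.28 on the log2 scale, stood in several arrays of different groups. Group spreads of such probe sets, such as the SD of 0.05 in infant arrays for DMD 208086_s_at, therefore rest on fewer distinct readings than arrays.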
